A study of Drosophila melanogaster with 8 samples.

Results

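The RNA levels of 6 families of DNA transposons, transib1, transib2, transib3, transib4, ‘1360’ (a name, hence the quotation marks) and Hobo, were followed in ovaries of Drosophila melanogaster with and without depletion of the Piwi protein from follicle cells, and with depletion of Dcr2 on top of it. The members were chosen by name, as every family whose name begins with transib, the family ‘1360’, and Hobo. They are 6 of the 111 families of transposable elements (TEs) that both tables of the series list, and all 6 passed the requirement of a value above 0. PolyA RNA from 30 pairs of ovaries per sample was sequenced in 4 groups of 2 biological replicates, 8 samples in all.

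In the piwi-sKD group (sKD for somatic knockdown), flies of a line with the w mutation, tj-GAL4, tubP-GAL80[ts] and the hairpin sh-piwi had been kept at 20°C and then at 25°C for their last 5 days. The no-KD group was the same line held at 20°C throughout. The piwi-sKD,dcr2-sKD group had 1 copy of tj-GAL4 (tj-GAL4 / +), and a GAL80[ts] sh-piwi chromosome over sh-dcr2, a hairpin against Dcr2. Its control piwi-sKD,ctrl-sKD was also tj-GAL4 / +, with GAL80[ts] sh-piwi over sh-w, a hairpin against the eye colour gene white, and both had the same shift to 25°C according to the labels, although in these 4 library names a higher value stands in the place of the temperature. All 4 groups thus carry the piwi hairpin, which tj-GAL4 expresses in the follicle cells that enclose the germline, once the heat-sensitive GAL80 inhibitor is inactive. Germline Piwi is not the target, whereas whole ovaries were measured. Piwi depletion and temperature change together between piwi-sKD and no-KD and cannot be told apart there. The authors ran a separate control, adding a GAL80 that is not heat-sensitive to the line and shifting it to 25°C. They report that none of a subset of TEs measured by RT-qPCR rose in it. The main text of the study does not list that subset, and the samples used here include no such control. The knockdowns themselves and the make-up of the tissue were not checked here, because the tables used hold TE families and no genes. In whole ovaries, fewer cells of a type and less RNA per cell cannot be told apart either.

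DNA transposons move by excision and reinsertion of the element itself, cut by a transposase that the full-length copies encode, so their RNA is the messenger of the enzyme or a transcript of an inactive copy and not the transposition intermediate. Transib elements form a superfamily whose transposase is related to the RAG1 recombinase of vertebrates, ‘1360’ (also called hoppel) belongs to the P-element superfamily and is found mostly as inactive copies, many of them in heterochromatin, and hobo, of the hAT superfamily, is mobile in some strains and can cause hybrid dysgenesis. In follicle cells Piwi, guided by piRNAs, silences transcription of TEs, chiefly those whose sequences lie in the flamenco piRNA cluster, and Dcr2 cuts double-stranded RNA into siRNAs.

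The unit is the DESeq2-normalised count, a read count per family divided by the size factor of the sample. Size factors lay between 0.927 and 1.13, and TE reads between 78807 and 343458 per sample. The levels of the 6 families rested on 52 to 2438 reads each, far above the 3 reads (2.66 to 3.23 normalised counts) taken as the smallest amount the depth can show. Floors of this kind cover counting error only. The 6 families together gave 1.90% and 1.72% of the TE signal in piwi-sKD and 3.77% and 3.82% in no-KD, and 1.45% and 1.43% in piwi-sKD,dcr2-sKD, against 2.23% and 2.03% in piwi-sKD,ctrl-sKD.

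The reference genome (assembly BDGP6.54, Ensembl annotation) shows how unlike these families are in their copies. ‘1360’ has 493 annotated insertions, Hobo 60, transib2 27, transib3 14, transib4 8 and transib1 only 3. All 3 transib1 insertions lie outside annotated genes, as do 7 of 8 for transib4, 18 of 27 for transib2, 9 of 14 for transib3, 33 of 60 for Hobo and 267 of 493 for ‘1360’, beside 50.9% of all 5896 annotated TE insertions. The remaining insertions of transib2 (9) and transib4 (1) are intronic. Exons are overlapped by 43 insertions of ‘1360’, 2 of Hobo and 1 of transib3. The transib3 case (chromosome 4, 906135 to 907100, minus strand) overlaps exons of the noncoding gene CR43361 and of unc-13, which encodes a synaptic vesicle priming protein. The longest ‘1360’ span (chromosome 4, 788939 to 796792) overlaps an exon of MED26, which encodes a Mediator subunit. Chromosome 4 carries 60 of the 493 insertions of ‘1360’, or 12.2%, against 9.60% of all annotated insertions. The Y chromosome, which females lack, carries 57 of the 493, of 80 insertions of all families annotated there. In the flamenco gene, 47 insertions of all families are annotated, of which 1 is a ‘1360’ and 0 belong to Transib or Hobo.

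The longest transib1 span, 11981 bp on chromosome arm 2R, lies between the coding genes Pld and jing, the interval known to hold the 42AB piRNA cluster of the germline. It is separated by 2 bp from a ‘1360’ span of 6202 bp, and a transib2 insertion lies 3247 bp away. Most of it is made of other elements, since an mdg3 span of 10501 bp and an invader3 span of 5477 bp are annotated inside. Whether reads from those elements were counted under transib1 was not tested. Both transib1 spans of at least 1 kb, 48 of 283 such spans of ‘1360’ and 5 of 27 of Hobo overlap another insertion. Levels were therefore not divided by length, and the order of the families below is an order of signal and not of RNA molecules. The insertions that the flies studied carry were not analysed here.

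The first comparison asked what happens to these families when Piwi is depleted in follicle cells. On the deposited scale, transib1, transib2 and Hobo rose in piwi-sKD, of which only transib1 was also higher under each of 3 rescalings to the other TE families, and transib3, transib4 and ‘1360’ did not pass the test. The change was 3.95-fold for transib1, 1.91-fold for transib2 and 1.32-fold for Hobo. So 3 of 6 members were called higher and 0 lower, where 55.0% of all 109 families tested were called higher and 5.50% lower (limma on log2(normalised count + 1), Benjamini-Hochberg adjustment over all families, threshold 0.05).

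Transib1 had 186 and 283 normalised counts in piwi-sKD, against 56.1 and 62.6 in no-KD. The lower piwi-sKD sample was thus 2.97 times the higher no-KD sample, although the piwi-sKD replicates lay 1.52-fold apart, 5th in width among 105 families in that group. The group means were 235 ± 68.8 and 59.3 ± 4.59 (SD, n = 2 each). On the log2 scale transib1 was higher by 1.94 ± 0.22 (SE, limma adjusted p = 8.79e-05), 17th from the highest of the 109 families. Transib1 was the weakest of the 6 families in no-KD and the fifth of the 6 in piwi-sKD, above transib4.

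Transib2 had 388 and 362 normalised counts in piwi-sKD, against 210.3 and 182 in no-KD. The groups did not overlap, and the replicates of each differed by at most 1.16-fold. On the deposited scale it was higher by 0.94 ± 0.13 in log2 (limma adjusted p = 0.000378). However, transib2 was called lower at -0.27 when samples were centred on their median family (limma adjusted p = 0.0492). It was also called lower at -0.43 when the summed TE signal was made equal (limma adjusted p = 0.00443). With the median fold change of all families set to 0, it was at 0.47 and still called higher. The negative values are relative to the TE families as a whole.

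Transib3, the strongest of the Transib families in no-KD, had 624 and 605 normalised counts in piwi-sKD, against 549.9 and 537 in no-KD. The samples were separated, but by no more than 1.16-fold in any pair, and the log2 fold change of 0.18 ± 0.10 did not pass (limma adjusted p = 0.171). Transib4 was the 1 member with lower values, 157 and 165 in piwi-sKD, against 197 and 173 in no-KD. Its log2 fold change of -0.19 ± 0.15 did not pass either (limma adjusted p = 0.288), with a 95% interval of -0.53 to 0.15. The 4 Transib families therefore gave different values in the same samples, between -0.19 for transib4 and 1.94 for transib1, and the 95% interval of transib1 does not meet that of any of the other 3.

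‘1360’, the strongest of the 6 families in every group, had 1994 and 2158 normalised counts in piwi-sKD, against 1946 and 1757 in no-KD. The closest pair of samples differed by 1.02-fold. On the deposited scale its log2 fold change was 0.17 ± 0.10 (limma adjusted p = 0.197), with a 95% interval of -0.07 to 0.40. It was called lower under all 3 rescalings, at -1.05 with samples centred on their median family, -1.20 with the summed TE signal made equal and -0.30 with the median fold change set to 0. These values are relative to the TE families as a whole, 55.0% of which were called higher on the deposited scale. A family with little change there comes out negative by construction.

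Hobo had 419 and 412 normalised counts in piwi-sKD, against 299.7 and 329 in no-KD. All piwi-sKD samples lay above all no-KD samples, by 1.25-fold to 1.40-fold. On the deposited scale Hobo was higher by 0.40 ± 0.12 in log2 (limma adjusted p = 0.0163). However, it was called lower at -0.81 with samples centred on their median family (limma adjusted p = 3.14e-05). It was also called lower at -0.96 with the summed TE signal made equal (limma adjusted p = 4.13e-11). With the median fold change of all families set to 0, it was at -0.06 and not called. The call as higher thus held under none of these rescalings, whose values are relative to the TE families as a whole. The call was also lost without no-KD replicate 1 (limma adjusted p = 0.0598), without piwi-sKD replicate 1 (0.117) and without piwi-sKD replicate 2 (0.109).

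**Figure D1:**
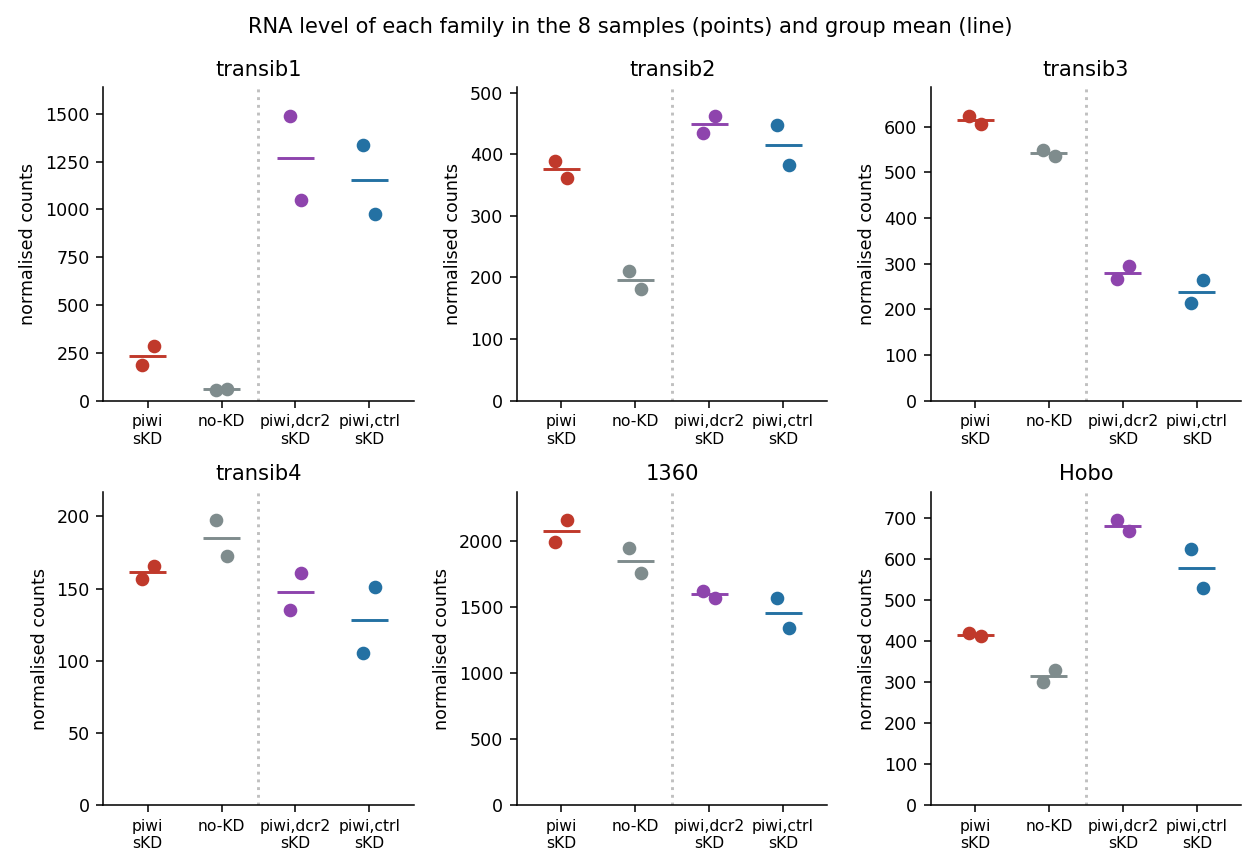
RNA level of each family in normalised counts (vertical axes, from 0, a scale per panel) in the 8 samples, with points for replicates, lines for group means and a dotted line between the tables, which were normalised separately (piwi sKD, piwi-sKD; piwi,dcr2 sKD, piwi-sKD,dcr2-sKD; piwi,ctrl sKD, piwi-sKD,ctrl-sKD). Transib1 has 186 and 283 in piwi-sKD and 56.1 and 62.6 in no-KD, and between 974 and 1490 in the double knockdowns.

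These changes have to be read against those of the other families. The median log2 fold change was 0.29 over the 6 members and 0.47 over all 109 families, so only transib1 (1.47 above that median) and transib2 (0.47 above it) exceeded the middle family. Hobo was at -0.06 from the median, transib3 at -0.29, ‘1360’ at -0.30 and transib4 at -0.66. In the order from the highest fold change, transib2 was 31st, Hobo 64th, transib3 82nd, ‘1360’ 84th and transib4 99th. Under the rescalings, transib3 and transib4 also passed the test as lower, at -1.04 and -1.40 with samples centred on their median family, at -1.19 and -1.56 with the summed TE signal made equal and at -0.29 and -0.66 with the median fold change set to 0. As for ‘1360’, such calls are relative to the other TE families and show no fall on the deposited scale, where neither family passed. Without overlap between the groups, 5 members were higher and 1, transib4, was lower, where 73.4% of all families were higher and 11.0% lower in that sense.

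The summed TE signal was 2.59 times as high in piwi-sKD as in no-KD, whereas the sum of the 6 members was 3877 ± 154 normalised counts in piwi-sKD and 3149 ± 156 in no-KD (SD, n = 2 each), a ratio of 1.23. Transib1 was the only one of the 6 with a higher share of TE signal in both piwi-sKD samples, 0.0936% and 0.123%, against 0.0649% and 0.0787% in no-KD. For ‘1360’ the shares were 1.004% and 0.934% in piwi-sKD and 2.25% and 2.21% in no-KD. Over all families, 60 were called higher and 6 lower on the deposited scale, against 22 and 71 with samples centred on their median family, 22 and 78 with the summed TE signal made equal, and 31 and 19 with the median fold change set to 0. Transib1 remained higher under all 3, with log2 fold changes of 0.73, 0.58 and 1.47.

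**Figure D2:**
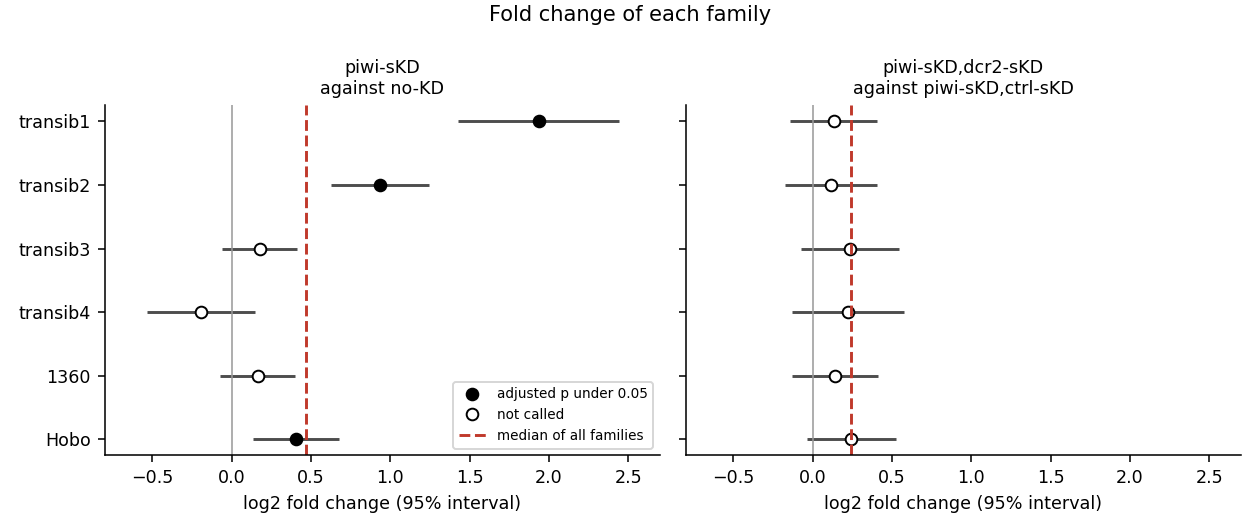
Log2 fold change on the deposited scale (horizontal axis) with its 95% interval for the 6 families in both comparisons, with filled points for an adjusted p under 0.05 and a dashed line at the median of all families. Transib1 (1.94), transib2 (0.94) and Hobo (0.40) are called in piwi-sKD against no-KD, and no family is called in the other comparison. Of these, transib2 and Hobo turn negative and are called lower when samples are centred on their median family (-0.27 and -0.81).

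The second comparison asked whether loss of Dcr2 on top of Piwi depletion changes the same families. None of the 6 passed the test, 0 of them had an unadjusted p under 0.05 in limma, and the ratios of the group means ran from 1.08 for transib2 to 1.18 for Hobo. Among all 110 families tested, 27.3% were called higher and 3.64% lower. The p-values of this fit rest on a spread shared by families of similar level, since limma estimated infinite prior degrees of freedom.

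Transib1 had 1490 and 1049 normalised counts in piwi-sKD,dcr2-sKD, against 1336 and 974 in piwi-sKD,ctrl-sKD. The replicates of a group lay 1.42-fold and 1.37-fold apart, more than the groups did, and the groups overlapped. The log2 fold change was 0.13 ± 0.14 (limma adjusted p = 0.490), and its 95% interval allows ratios between 0.908 and 1.32. Its sign turned without piwi-sKD,ctrl-sKD replicate 2 (-0.09) and without piwi-sKD,dcr2-sKD replicate 1 (-0.12).

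Transib2 had 435 and 462 normalised counts in piwi-sKD,dcr2-sKD, against 448 and 382 in piwi-sKD,ctrl-sKD, and transib4 had 135 and 161, against 105 and 151. The groups of both families overlapped. Their log2 fold changes were 0.12 ± 0.15 (limma adjusted p = 0.588) and 0.22 ± 0.18 (limma adjusted p = 0.370). The transib4 value was -0.03 without piwi-sKD,ctrl-sKD replicate 1.

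Transib3, ‘1360’ and Hobo had every piwi-sKD,dcr2-sKD sample above every piwi-sKD,ctrl-sKD sample, where 54.5% of all families did so and 11.8% had the reverse. Transib3 had 266 and 294 normalised counts in piwi-sKD,dcr2-sKD, against 214 and 264 in piwi-sKD,ctrl-sKD. ‘1360’ had 1624 and 1571, against 1567 and 1339. For Hobo the values were 695 and 669, against 625 and 529.

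Separation was thus narrow for ‘1360’ and transib3, whose closest samples differed by 1.003-fold and 1.01-fold. The log2 fold changes were 0.24 ± 0.16 for transib3 (limma adjusted p = 0.262), 0.14 ± 0.14 for ‘1360’ (0.474) and 0.24 ± 0.14 for Hobo (0.177). Over the 6 members the upper bound of the 95% interval was between 1.32-fold and 1.49-fold. It uses the shared spread and not that of each family, so larger rises are not excluded. For transib1 the ratios of single samples ran from 0.786 to 1.53.

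The median log2 fold change of the 6 members was 0.18 and that of all families 0.24. The summed TE signal was 1.65 times as high in piwi-sKD,dcr2-sKD as in piwi-sKD,ctrl-sKD, and the sum of the members 1.12 times as high, at 4426 ± 309 and 3967 ± 463 normalised counts (SD, n = 2 each, overlapping groups). All 6 positive values turned negative with samples centred on their median family, to between -0.25 and -0.12, of which none passed, and with the summed TE signal made equal all 6 were called lower, at -0.60 to -0.48. With the sums made equal, a family that rose by less than the sum comes out negative by construction. Over all families, the 30 higher and 4 lower calls became 16 and 19 by that centring, 12 and 65 with the summed TE signal made equal, and 23 and 10 with the median fold change set to 0.

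**Figure D3:**
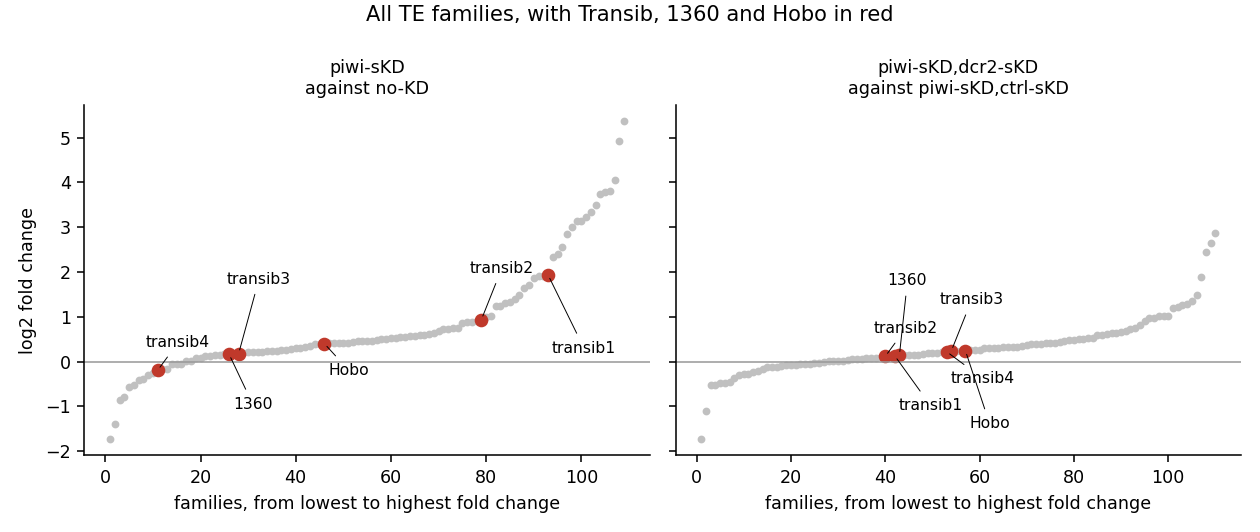
Log2 fold change on the deposited scale (vertical axis) of all TE families tested, ordered from lowest to highest (horizontal axis, place in the order), with the 6 members in red. In piwi-sKD against no-KD (left) the members spread from -0.19 (transib4) to 1.94 (transib1), whereas in piwi-sKD,dcr2-sKD against piwi-sKD,ctrl-sKD (right) they lie between 0.12 and 0.24, all of which turn negative when samples are centred on their median family.

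The 4 groups were then set side by side for each family. The tables have their own size factors and the double knockdowns come from another cross, so these levels were not tested. Within a sample, however, the ratio of 2 families does not depend on the size factor.

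Transib1 differed most between the tables among the 6. It was 4.92 times as high in piwi-sKD,ctrl-sKD as in piwi-sKD (1155 ± 256 and 235 ± 68.8 normalised counts), the third highest such ratio of 105 families, whose median was 0.838. It was the fifth of the 6 families in piwi-sKD and the second, behind ‘1360’, in both double knockdowns. Its ratio to transib3 in the same sample was 5.59 and 3.57 in piwi-sKD,dcr2-sKD, against 6.25 and 3.69 in piwi-sKD,ctrl-sKD, while piwi-sKD had 0.298 and 0.468 and no-KD 0.102 and 0.117. Piwi-sKD and piwi-sKD,ctrl-sKD both carry the induced piwi hairpin and are labelled with the same temperatures, so this gap lies between groups that differ in cross, in table and in the value that their library names carry in the place of the temperature, and these cannot be told apart.

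Transib3 had the opposite order, with 0.388 times the piwi-sKD level in piwi-sKD,ctrl-sKD, 13th from the lowest of the 105 families. Relative to ‘1360’ in the same sample it was at 0.164 and 0.187 in piwi-sKD,dcr2-sKD, against 0.136 and 0.197 in piwi-sKD,ctrl-sKD, while piwi-sKD had 0.313 and 0.281 and no-KD 0.283 and 0.306. Each double knockdown sample lay below each sample of the other table in this ratio. Of the summed Transib signal, transib1 made up 64.1% and 53.4% in piwi-sKD,dcr2-sKD, against 63.5% and 55.0% in piwi-sKD,ctrl-sKD, while it was 13.7% and 20.0% of it in piwi-sKD and 5.53% and 6.56% in no-KD. Transib3 made up 11.4% and 14.9% of it in piwi-sKD,dcr2-sKD, against 10.2% and 14.9% in piwi-sKD,ctrl-sKD, while it was 46.0% and 42.8% of it in piwi-sKD and 54.3% and 56.3% in no-KD.

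**Figure D4:**
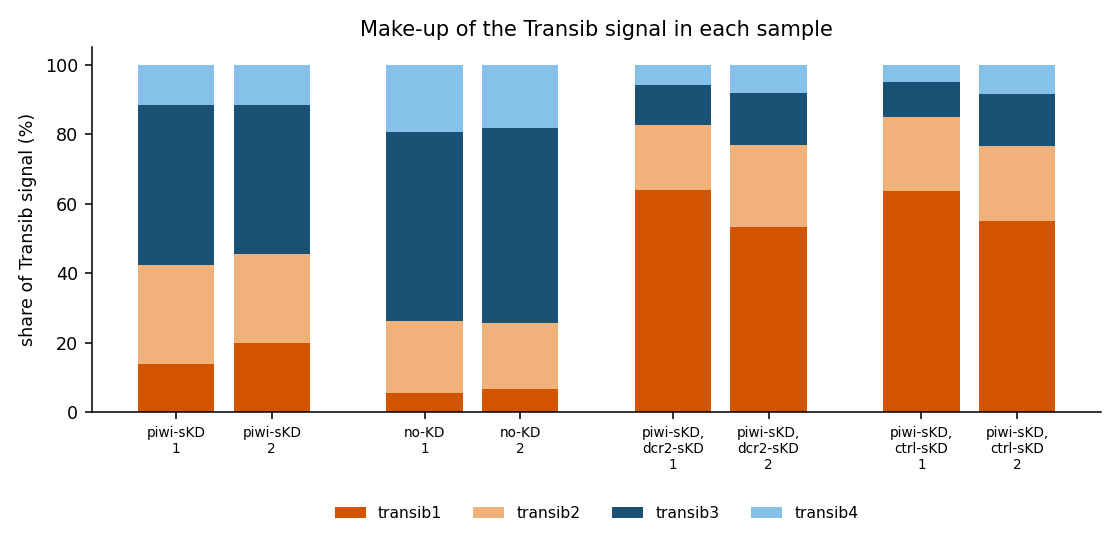
Share of the summed signal of the 4 Transib families (vertical axis, percent) that each family made up in each of the 8 samples (1 bar per sample). Transib1 makes up 53.4% to 64.1% in the double knockdowns, 13.7% and 20.0% in piwi-sKD and 5.53% and 6.56% in no-KD.

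Of the other members, Hobo was 1.39 times as high in piwi-sKD,ctrl-sKD as in piwi-sKD, transib2 1.11 times with overlapping samples, transib4 0.795 times and ‘1360’ 0.700 times. From the highest mean down, Hobo was ordered piwi-sKD,dcr2-sKD, piwi-sKD,ctrl-sKD, piwi-sKD, no-KD, and no neighbours in that order overlapped. Its ratio to ‘1360’ was 0.428 and 0.426 in piwi-sKD,dcr2-sKD, against 0.399 and 0.395 in piwi-sKD,ctrl-sKD, while piwi-sKD had 0.210 and 0.191 and no-KD 0.154 and 0.187. ‘1360’ and transib3 were both ordered piwi-sKD, no-KD, piwi-sKD,dcr2-sKD, piwi-sKD,ctrl-sKD without overlap of neighbours. Transib1 was ordered as Hobo, but its double knockdowns overlapped. For transib2 the order was the same and only no-KD stood clear of its neighbour, and for transib4 no-KD was highest and the other 3 groups overlapped in turn.

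The families whose pattern over the 8 samples was nearest to each member were found by the root-mean-square difference of log2 levels, each family centred on its own mean within a table, among 104 other families. Only the differences within a table enter this measure. INE-1, a short element with very many copies in the fly genome, lay nearest to ‘1360’ (0.0327, against a median of 0.235 over the 104 families), followed by roo (0.0666) and opus (0.0790), both LTR retrotransposons. Opus (0.0858), roo (0.0892) and jockey (0.0944) were nearest to Hobo. Nearest to transib1 were diver2 (0.205), S (0.251) and G6 (0.253), at a median of 0.622. Burdock (0.118), gypsy4 (0.141) and G4 (0.144) were nearest to transib2. Invader5 (0.115), roo (0.118) and baggins (0.123) were nearest to transib3. For transib4 they were hopper2 (0.140), transib3 (0.153) and invader5 (0.184). Between members, ‘1360’ and Hobo were closest (0.121) and transib1 and transib4 farthest apart (0.830).

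Among the other DNA transposons, the list outside the Tc1/mariner superfamily held 12 families in all, of which 5 were called higher and 0 lower in piwi-sKD on the deposited scale, where 55.0% of all families were called higher, with a median log2 fold change of 0.17. Of its 6 families that are no members, NOF, which is carried by some foldback elements, had 177 and 194 normalised counts in piwi-sKD, against 66.8 and 72.7 in no-KD (2.66-fold, limma adjusted p = 0.000107), and stayed above 0 under the 3 rescalings (log2 0.19, 0.04 and 0.93). Hopper, the other one called, had 199 and 232 in piwi-sKD, against 143 and 134 in no-KD (1.55-fold, limma adjusted p = 0.00694), but its log2 value was -0.58 with samples centred on their median family and -0.73 with equal TE sums. FB, INE-1, hopper2 and looper1 did not pass. In the Tc1/mariner list, 5 of 9 families (Bari1, mariner2, S, Tc1 and Tc1-2) were called higher and 1 (Tc3) lower, beside the same 55.0% and 5.50% of all families, with a median of 0.50, though Bari1, Tc1 and Tc1-2 had values from -0.88 to -0.45 under the same pair of rescalings. Mariner2 (8.83-fold) and S (3.27-fold) stayed above 0 under all 3 rescalings, at log2 1.92, 1.77 and 2.67 for mariner2 and 0.49, 0.34 and 1.24 for S.

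With Dcr2 depletion, where 27.3% of all families were called higher, NOF was the 1 family of the 12 that passed, with 391 and 429 normalised counts in piwi-sKD,dcr2-sKD, against 222 and 194 in piwi-sKD,ctrl-sKD (1.97-fold, limma adjusted p = 1.03e-08), and the median of the list was 0.14. In the Tc1/mariner list 2 of 9, Bari1 and mariner2, were called higher and 0 lower, with a median of 0.24. With equal TE sums the log2 value of Bari1 was 0.029, against 0.73 on the deposited scale, and that of mariner2 was -0.21.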

How the data were processed

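Ovary polyA RNA was sequenced as single reads of 50 nt from TruSeq stranded libraries. The authors trimmed reads with UrQt, aligned them with TopHat2, counted genes with eXpress and counted TEs with TEcount against the copies of the sequenced genome. What the authors deposited is a signal per TE family, its read count after normalisation of genes and TEs together with DESeq2 1.10, in 2 tables. How reads that match several families were assigned, and whether TE counting used strand, is not given in the sources used here, so transib1 to transib4 may share reads. Reads of mdg3 and invader3, annotated inside the longest transib1 span, may likewise have been counted under transib1. Neither was tested. The labels name the build dm3, and the tables hold no coordinates.

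In each sample 100% of values were whole multiples of 1 step (tolerance 1e-06 of a read), from which size factors and reads followed. All columns of values were used (0 left out). Groups came from the sample titles. Each comparison was fitted within its table with limma 3.58.1 in R 4.3.3 (lmFit, eBayes with trend) on log2(normalised count + 1) for families with any value above 0, with Benjamini-Hochberg adjustment and a threshold of 0.05. The first fit had 6.11 prior degrees of freedom. This log scale understates changes of low families. Fold changes without a log are ratios of group means. The fit was tested on simulated data in which rises and falls were equally likely, unlike the calls found here. No result here rests on that test. An exact permutation of 2 samples against 2 cannot go under p = 0.333, so none is given. P-values rest on the spread between the biological replicates named in the labels, pooled with that of other families. The pooling was partial in the first fit. In the second the spread came wholly from families of similar level. Insertions were matched to families by name, with H taken as Hobo, and were called exonic where they overlap an exon of any annotated gene.

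Named families were all members, the 3 nearest patterns of each (of those with means of 10 or more in each table) and the called families of 2 lists of DNA transposons. The members and lists were chosen with earlier results of these data known. Alternatives were other pseudocounts, a filter on low means, other scalings, no trend, all 4 groups in 1 fit, a replicate block and leaving out each replicate.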

Additional observations from a re-analysis of the deposited data

How the results depend on the processing

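Scaling mattered most. With samples centred on their median family, with the summed TE signal made equal and with the median fold change of all families set to 0 (the last chosen after seeing the data), the values in log2 for piwi-sKD against no-KD were -1.04, -1.19 and -0.29 for transib3, -1.40, -1.56 and -0.66 for transib4, -1.05, -1.20 and -0.30 for ‘1360’, and -0.81, -0.96 and -0.065 for Hobo. Transib2 was at -0.27 and -0.43 under the first pair and at 0.47 under the last. In piwi-sKD,dcr2-sKD against piwi-sKD,ctrl-sKD they were -0.24, -0.59 and -0.11 for transib1, -0.25, -0.60 and -0.12 for transib2, -0.13, -0.48 and -0.0026 for transib3, -0.14, -0.49 and -0.015 for transib4, -0.23, -0.58 and -0.098 for ‘1360’, and -0.12 and -0.48 for Hobo, positive under the last. By construction only the last of these takes out the shift of the median family, 0.47 in the first comparison, and the other pair moved each member by more. The families called higher and lower in the first comparison, 60 and 6, became 22 and 71, 22 and 78, and 31 and 19. In the second, 30 and 4 became 16 and 19, 12 and 65, and 23 and 10.

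Leaving out 1 replicate gave log2 fold changes of 0.34 to 0.47 for Hobo in the first comparison, and of -0.12 to 0.38 for transib1 and -0.035 to 0.48 for transib4 in the second. It gave 3 to 5 families called lower in the first comparison, the lowest without no-KD replicate 2, and 2 to 5 in the second, the lowest without either piwi-sKD,dcr2-sKD replicate. A lone sample was assumed to vary like the other group. The cause of these shifts was not tested. With the replicate block, Hobo kept its log2 fold change of 0.40 with a limma adjusted p of 0.0541, no other member changed its call, and the calls over all families were 53 higher and 5 lower, then 33 and 3. Deviations of equally numbered samples correlated at -0.130 and 0.250 over 105 families, and no label says that a number marks a shared batch. Apart from scalings and left-out replicates, 83 of the members' alternative values, precision weights (added after seeing the data) included, kept direction and call, and 1, Hobo under the block, did not. The tests with edgeR and DESeq2 were not run. Shares of the TE signal stand with the levels. Transib4 had the fewest reads of the members in the second table, 98 to 161, and a 95% interval there of 0.915-fold to 1.49-fold. How much of it is depth was not tested.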
